A study of Xenopus laevis with 96 samples.

Results

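The comparison set embryos exposed to excess retinoic acid (RA) against embryos in which RA synthesis was inhibited, 1.5 h after both treatments had been washed out. It used 12 of the 96 RNA-seq libraries of the series, 6 from whole wild-type Xenopus laevis embryos treated with 10 nM all-trans RA and 6 from embryos treated with 50 μM 4-diethylaminobenzaldehyde (DEAB), an inhibitor of the retinaldehyde dehydrogenases (RALDH) that make RA. The libraries were chosen by their labelled treatment and time point and were paired by clutch letter, A to F. The 6 control libraries of the same clutches and time point were kept as the reference from which both treatments depart.

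Both treatments lasted 2 h, from the late blastula to the early gastrula, and both compounds were prepared as stocks in DMSO. The labels give stage 11 for these libraries, except that the libraries of clutch A are labelled stage 11.5. Each clutch was the eggs of 1 female divided over all groups, and each sample pooled 5 to 10 embryos. The authors had selected the clutches by qPCR, keeping those in which RA responsive genes, cyp26a1.L and hoxb4.S among them, rose with RA and fell with DEAB, so the changes of these genes are not independent evidence of a response. Because whole embryos were used, more cells of a type and more RNA per cell cannot be told apart.

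RA is made from vitamin A: retinol is oxidised to retinaldehyde by short-chain dehydrogenases, and retinaldehyde is oxidised to RA by the RALDH enzymes. RA binds nuclear receptors of the RAR family, which act with RXR partners at RA response elements of target genes. In the gastrula it gives cells posterior identity, with the hox genes at the early expressed ends of the clusters among its best known targets, and it induces the CYP26 and DHRS3 enzymes that remove RA or its precursor.

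Total counts on genes ranged from 8540455 to 14714561 in the RA libraries (median 12873999, n = 6), from 9688644 to 15795688 in the DEAB libraries (median 12439348, n = 6) and from 6854309 to 14570311 in the control libraries (median 11419203, n = 6). Levels are given in CPM, the usual unit of counts divided by library size, with library sizes scaled by TMM. Marker genes of neural ectoderm, epidermis, mesoderm, endoderm and organizer were expressed in every library, and none of them was called between RA and DEAB. For example, the summed level of the 7 mesoderm markers ranged from 387 to 927 CPM in the RA libraries and from 557 to 964 CPM in the DEAB libraries. X. laevis carries L and S copies (homeologs) of many genes, between which the authors' counting could have split reads, and values of single copies are uncertain to that extent.

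Most genes called between RA and DEAB were higher with RA. Where a gene is said below to rise or fall between them, it was higher or lower with RA than with DEAB. That is not a change from control. Of 19543 genes tested, 192 (0.982%) were higher with RA and 12 (0.0614%) were lower at an adjusted p under 0.05 (edgeR quasi-likelihood test with clutch as a block, Benjamini-Hochberg adjustment). Among the genes with the largest differences were both copies of cyp26c1 and cyp26a1, hoxb1.S and mxra5.S, all more than 4-fold apart. Of the 192 higher genes, 18 had a log2 fold change of at least 2, 51 of at least 1 and 123 of at least 0.5, with a median of 0.66. None of the lower genes reached a log2 fold change of -1, and their median was -0.34. The median over all genes tested was -0.0028. Within clutches, 167 of the higher genes were higher with RA in 6 of 6 clutches, 23 in 5 and 2 in 4. The called genes were picked on the same 6 clutches, so this agreement describes them and is not a further test. The share of all genes tested that moved 1 way in 6 of 6 clutches is not given here. For 23 of the 192 higher genes the 6 RA libraries all lay above the 6 DEAB libraries, which held for 0.118% of all genes tested. The reverse, all RA libraries below all DEAB libraries, held for 0.00512% of genes tested and for 0 of the 12 lower genes. Leaving out clutch F reduced the higher genes to 126. The lower genes numbered 23 without clutch B and 6 without clutch E, and the split of higher to lower genes was 213 to 35 with DESeq2 and 263 to 82 with no filter on low counts.

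The enzymes that dispose of RA showed the strongest response among the RA pathway genes. Of the 8 tested genes of RA inactivation and retinaldehyde reduction, 6 were higher with RA and none was lower, with a median log2 fold change of 2.18. The genes that rose were both copies of cyp26a1 and of cyp26c1, cytochrome P450 enzymes that oxidise RA, and both copies of dhrs3, which reduces retinaldehyde back to retinol. The levels of cyp26a1.S were 197, 847 and 1054 CPM (lowest, median and highest of 6 libraries) with RA and 76.2, 94.6 and 110 CPM with DEAB, a log2 fold change of 2.81 ± 0.24 (SE, adjusted p = 1.19e-06). The groups did not overlap, and the lowest RA library was that of clutch B. Those of cyp26a1.L were 157, 541 and 779 CPM with RA and 79.9, 86.7 and 147 CPM with DEAB (2.27 ± 0.24, adjusted p = 9.95e-06). This gene, like its S copy, had no overlap between the groups, although the highest DEAB library, that of clutch A, came close to the lowest RA library, that of clutch B.

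The second P450 family member was expressed at far fewer counts. The levels of cyp26c1.S were 4.65, 11.1 and 30.7 CPM with RA and 0.437, 1.39 and 3.30 CPM with DEAB (log2 fold change 2.94 ± 0.26, adjusted p = 2.12e-06). Those of cyp26c1.L were 6.16, 13.3 and 51.9 CPM with RA and 0.582, 2.82 and 4.54 CPM with DEAB (2.59 ± 0.28, adjusted p = 1.07e-05). Neither copy had an RA library within the DEAB range, and clutch D held the highest RA value of both. For dhrs3.L the levels were 74.9, 216 and 280 CPM with RA and 31.8, 42.9 and 48.0 CPM with DEAB (2.09 ± 0.20, adjusted p = 3.52e-06). The S copy of dhrs3, listed in the files as LOC108697667, was at 63.6, 167 and 228 CPM with RA and 27.1, 46.3 and 63.2 CPM with DEAB (1.78 ± 0.17, adjusted p = 3.52e-06). Its lowest RA library and its highest DEAB library were nearly level, the first from clutch B and the second from clutch A. The other members, rdh13.L and rdh14.L, were at 0.16 ± 0.23 (adjusted p = 0.955) and -0.0016 ± 0.087 (adjusted p = 0.9996) and did not pass the test.

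**Figure D1:**
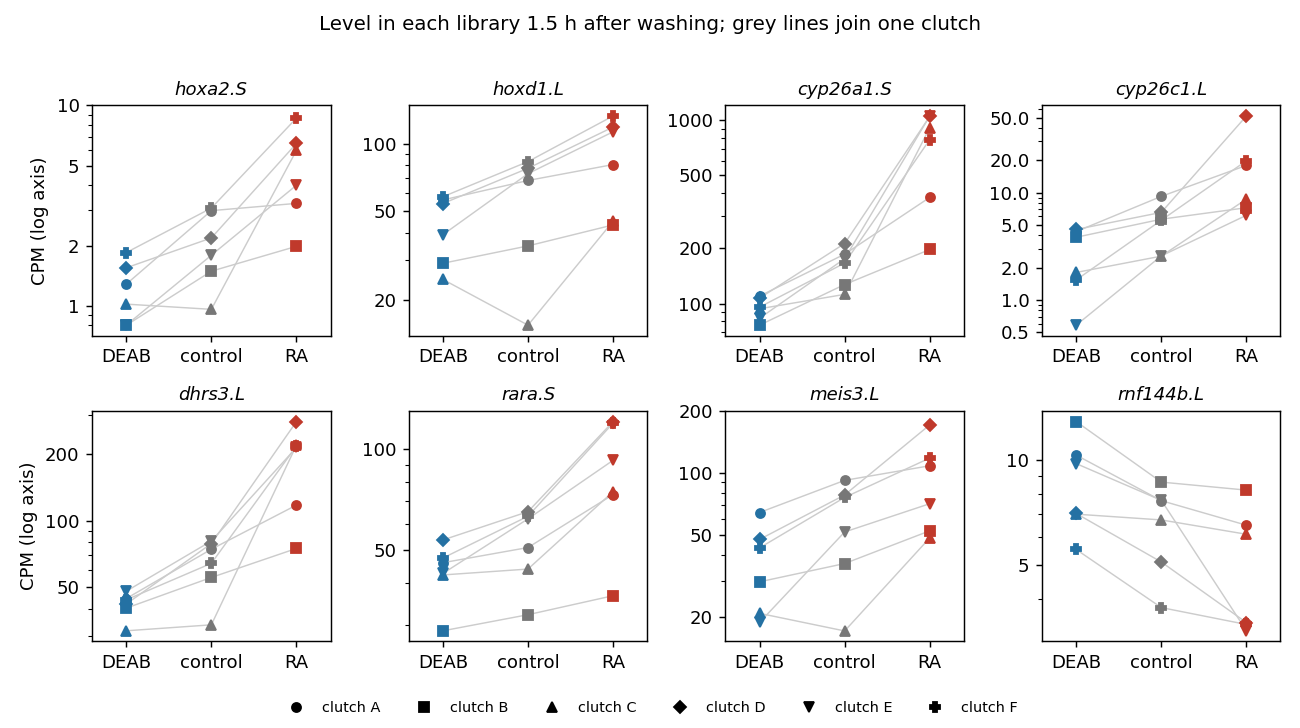
Levels of 8 genes 1.5 h after washing in DEAB, control and RA embryos, in CPM on a log axis, with 1 marker per clutch and grey lines joining the libraries of a clutch. In hoxa2.S, cyp26a1.S, cyp26c1.L and dhrs3.L the 6 RA libraries all lie above the 6 DEAB libraries, whereas in hoxd1.L, rara.S (LOC108702480), meis3.L and rnf144b.L the groups overlap although the clutches move in 1 direction.

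No call fell on the listed genes of RA synthesis or of retinoid binding and uptake. Over all genes tested 0.982% were called higher and 0.0614% lower, so 0 calls in such short lists are near that share. rdh9, named as a retinol dehydrogenase, was in neither list and was called lower with RA, as given below. Of 7 tested genes of RA synthesis, 0 were called in either direction by edgeR, and their median log2 fold change was -0.15. The nearest to the threshold was LOC108712938, the S copy of aldh1a2, the main RALDH of the gastrula, at -0.30 ± 0.079 (adjusted p = 0.0867), lower with RA in 6 of 6 clutches. The L copy, aldh1a2.L, was at 111, 128 and 234 CPM with RA and 130, 144 and 248.5 CPM with DEAB, and was lower with RA in 6 of 6 clutches, but at -0.15 ± 0.075 it did not pass the test (adjusted p = 0.714). The retinol dehydrogenase copies rdh10.L and rdh10.S were at -0.14 ± 0.069 (adjusted p = 0.693) and -0.18 ± 0.054 (adjusted p = 0.176), the S copy lower in 6 of 6 clutches, and sdr16c5.L at -0.051 ± 0.089 (adjusted p = 0.967). The low-count aldh1a3.L was at -0.59 ± 0.23 (adjusted p = 0.469). The remaining member, adhfe1.S, had few counts and was at 0.31 ± 0.28 (adjusted p = 0.9096). The study assigns its enzyme to retinaldehyde reduction. Counted there, it gave 6 higher genes of 9 tested in that list and 0 of 6 in the synthesis list, whose values were then all below 0. These genes did not pass the adjustment over all genes tested, which does not show that they were equal.

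Of 6 tested genes of retinoid binding and uptake, 0 were called. The cellular RA binding protein genes crabp2.L and crabp2.S were at -0.088 ± 0.10 (adjusted p = 0.941) and -0.14 ± 0.16 (adjusted p = 0.938), and the retinol transporter gene stra6.L at 0.15 ± 0.13 (adjusted p = 0.895). The largest difference in the list was that of lrat.L, which encodes the enzyme that esterifies retinol for storage, at 0.72 ± 0.21 (adjusted p = 0.165), higher with RA in 6 of 6 clutches. Among 16 tested receptors and coregulators, 1 rose: LOC108702480, named rara.S in RefSeq, an RA receptor. Its levels were 36.6, 83.7 and 121 CPM with RA and 28.8, 44.3 and 53.7 CPM with DEAB, and it was higher with RA in 6 of 6 clutches by a log2 fold change of 0.93 ± 0.088 (adjusted p = 3.8e-06). The 2 groups overlapped because the RA library of clutch B, at 36.6 CPM, lay within the DEAB range. The other 15, among them rxrb.L at 0.0034 ± 0.043 (adjusted p = 0.9996) and ncor1.S at -0.011 ± 0.036 (adjusted p = 0.988), were not called, and the median of the list was 0.013.

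All 7 tested hox genes of paralogue groups 1 to 4, which mark the hindbrain and neck region of the body axis, rose with RA over DEAB, with a median log2 fold change of 2.01. The study's methods name hox genes, hoxb1.S and hoxb4.S among them, as a readout of the treatment's outcome, so their direction is not independent evidence. The levels of hoxb1.S were 0.648, 2.34 and 7.17 CPM with RA and 0, 0.336 and 1.03 CPM with DEAB, where 3 of 6 libraries had no count (2.89 ± 0.31, adjusted p = 1.07e-05). Those of hoxa2.S were 1.98, 4.99 and 8.65 CPM with RA and 0.80, 1.15 and 1.84 CPM with DEAB, without overlap (2.01 ± 0.23, adjusted p = 2.0e-05). For hoxb4.S they were 0.345, 1.86 and 6.94 CPM with RA and 0.0785, 0.698 and 1.34 CPM with DEAB. It was higher with RA in 5 of 6 clutches (1.66 ± 0.34, adjusted p = 0.0112), and it was no longer called when clutch A, D or F was left out. The L and S copies of hoxd1 both came close to a 2-fold difference. The levels of hoxd1.L were 43.3, 96.95 and 133 CPM with RA and 24.7, 46.5 and 57.9 CPM with DEAB (0.98 ± 0.13, adjusted p = 7.94e-05), and hoxd1.S differed by 0.995 ± 0.13 (adjusted p = 0.000146). hoxa3.S and hoxd4.L, with 58 and 23 counts in all over the 18 libraries of 1.5 h, did not pass the filter on low counts.

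The 4 tested hox genes of groups 5 to 13, which act farther back along the axis, were not called, with a median of 0.96. With 0.982% of all genes tested called higher, 0 of 4 is near that share. Their counts were low. hoxc6.L was at 1.24 ± 0.35 (adjusted p = 0.133), hoxc5.L at 1.11 ± 0.33 (adjusted p = 0.172), hoxb6.S at 0.80 ± 0.33 (adjusted p = 0.533) and LOC108718902, named hoxa9.L in RefSeq, at 0.080 ± 0.42 (adjusted p = 0.993). The first 3 had mean levels of about 1 to 2 CPM with RA. Whether depth kept them from being called was not tested.

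**Figure D2:**
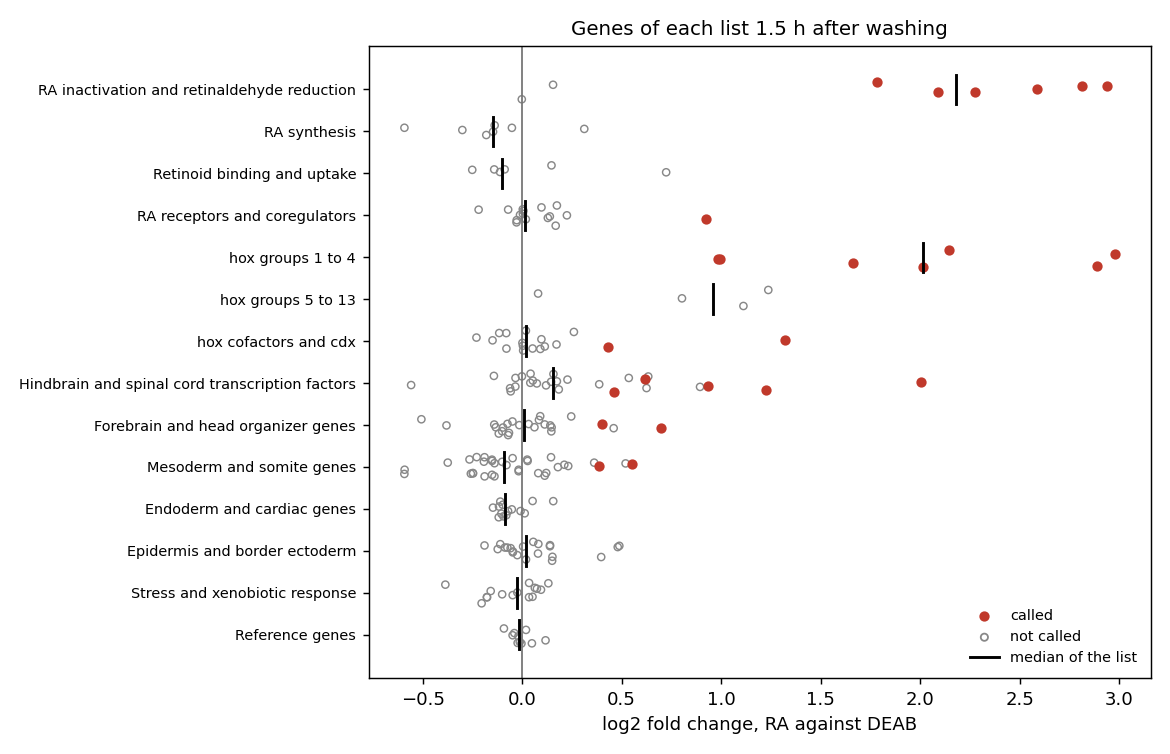
Log2 fold change of RA against DEAB 1.5 h after washing for every tested gene of 14 lists, 1 point per gene, filled where the gene was called at an adjusted p under 0.05, with the median of each list as a black line. The called genes sit in RA inactivation, hox groups 1 to 4 and the hindbrain list, with 1 among the receptors, 2 each among the hox cofactor, head organizer and mesoderm lists and none among the RA synthesis, retinoid binding, posterior hox, endoderm, epidermis, stress or reference genes. Over all genes tested 0.982% were called higher and 0.0614% lower.

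Among hox cofactors and cdx genes, 2 of 17 were higher with RA than with DEAB and none was lower, with a median of 0.019. meis3.L, a partner of Hox proteins needed for hindbrain formation in Xenopus, was at 48.4, 89.7 and 172 CPM with RA and 18.8, 36.4 and 64.3 CPM with DEAB (1.32 ± 0.14, adjusted p = 1.52e-05). It was higher with RA in every clutch, while the groups overlapped across clutches. Its S copy was at 0.053 ± 0.090 (adjusted p = 0.965). cdx4.S, a caudal homeobox gene of the posterior axis, was higher with RA than with DEAB by 0.43 ± 0.089 (adjusted p = 0.0138), and cdx4.L was at 0.26 ± 0.094 (adjusted p = 0.373). The call of cdx4.S was lost without clutch D, E or F, and cdx4.L was called only without clutch C.

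Transcription factors of the hindbrain and spinal cord held 5 higher genes of 27 and none lower, with a median of 0.16. The zinc finger corepressor genes znf703.S and znf703.L rose by 0.93 ± 0.11 (adjusted p = 4.58e-05) and 0.62 ± 0.083 (adjusted p = 0.000143), each in 6 of 6 clutches. neurog3.S, a bHLH gene, was at 1.26, 2.99 and 6.59 CPM with RA and 0.655, 1.30 and 1.88 CPM with DEAB (1.23 ± 0.22, adjusted p = 0.00359). The members that were not called included mafb.L at -0.56 ± 0.24 (adjusted p = 0.563), irx2.L at 0.39 ± 0.12 (adjusted p = 0.172) and sox3.S at 0.16 ± 0.048 (adjusted p = 0.185).

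Genes of the forebrain and the head organizer held 2 higher genes of 24, with a median of 0.0095. lhx1.L, a LIM homeodomain gene of the organizer, was higher with RA than with DEAB by 0.40 ± 0.076 (adjusted p = 0.00558), a call lost without clutch E. fst.L, which encodes the activin and BMP antagonist follistatin, was higher by 0.70 ± 0.13 (adjusted p = 0.00395), with RA minus control at 0.32 and DEAB minus control at -0.38. Their other copies, LOC108709506 (lhx1.S) at 0.15 (adjusted p = 0.477) and fst.S at 0.46 ± 0.17 (adjusted p = 0.403), were not called. The anterior genes otx2.L at -0.096 ± 0.11 (adjusted p = 0.941), otx2.S at -0.014 ± 0.066 (adjusted p = 0.993) and cer1.S at -0.14 ± 0.078 (adjusted p = 0.758) were not called either. Of 34 mesoderm and somite genes, the 2 copies of dusp6, a phosphatase gene that FGF signalling induces and that inactivates ERK, were higher. dusp6.L was at 20, 40.3 and 50.01 CPM with RA and 22.4, 26.1 and 28.4 CPM with DEAB (0.55 ± 0.10, adjusted p = 0.00569), and LOC495060 (dusp6.S) rose by 0.39 ± 0.086 (adjusted p = 0.0254). In clutch B the RA library of dusp6.L was below the DEAB library. Both calls were lost without clutch E or F, and that of dusp6.S also without clutch C.

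Of the other 32 mesoderm genes, 11 had values above 0 and 21 below, and the list median was -0.089. In 6 of 6 clutches 3 of them were higher with RA and 4 lower. meox2.L, a homeobox gene of the somites, was at 0.52 ± 0.17 (adjusted p = 0.281), higher with RA in 6 of 6 clutches. Its S copy was at -0.15 ± 0.22 (adjusted p = 0.968), higher with RA in 2 of 6. The T-box gene t was lower with RA in 6 of 6 clutches in both copies, at -0.19 ± 0.056 for t.L (adjusted p = 0.172) and -0.25 ± 0.077 for t.S (adjusted p = 0.214), and the presomitic gene msgn1.L was at -0.59 ± 0.16 (adjusted p = 0.102), lower in 6 of 6. The S copy of msgn1 was at -0.26 ± 0.19 (adjusted p = 0.847), higher with RA in 2 of 6 clutches. None of these passed the test. In each of the other lists 0 genes were called: 14 endoderm and cardiac genes (median -0.087), 21 epidermis and border ectoderm genes (0.020), 15 genes of stress and xenobiotic response (-0.024) and 10 reference genes (-0.015). These 0 calls are near the share over all genes tested, 0.982% higher and 0.0614% lower.

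Several genes outside the lists were among the 20 with the largest differences that were higher in all clutches. mxra5.S, which encodes a matrix remodelling protein, was at 3.16, 5.11 and 8.35 CPM with RA and 0.0728, 0.677 and 1.77 CPM with DEAB, without overlap (2.73 ± 0.27, adjusted p = 6.26e-06). skida1.L was at 13.8, 34.7 and 63.5 CPM with RA and 3.64, 8.65 and 11.2 CPM with DEAB, also without overlap (2.05 ± 0.24, adjusted p = 4.08e-05). LOC108718689, named wnt3a.L in RefSeq, a secreted Wnt ligand, was at 0.385, 0.932 and 1.88 CPM with RA and 0, 0.192 and 0.32 CPM with DEAB (2.39 ± 0.49, adjusted p = 0.0116). The wnt3a.L groups did not overlap, but the level was near the lower limit of the counts and the call was lost without clutch C.

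gbx2.2.L, a homeobox gene of the anterior hindbrain, was at 1.55, 9.53 and 15.1 CPM with RA and 0.55, 1.75 and 4.27 CPM with DEAB (1.97 ± 0.24, adjusted p = 4.58e-05). LOC108703560, named tnk2l.S, was at 3.71, 12.3 and 32.3 CPM with RA and 2.93, 3.58 and 4.85 CPM with DEAB (1.83 ± 0.22, adjusted p = 4.08e-05). In both genes the RA library of clutch B lay within the DEAB range, and for gbx2.2.L that of clutch C did too. LOC108701808 at 2.47 ± 0.39 (adjusted p = 0.00102) and LOC108709893 at 2.29 ± 0.50 (adjusted p = 0.019) carry no name, and the second was not called without clutch D. The nameless genes Xelaev18025355m and Xelaev18044028m rose by 2.71 ± 0.31 (adjusted p = 2.42e-05) and 1.85 ± 0.23 (adjusted p = 7.06e-05). Of the 204 called genes, 16 had no symbol in the files.

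Some signalling and metabolic genes were picked out after their values had been seen, and they are given as a description. The nuclear receptor gene nr6a1 was higher in both copies, by 1.196 ± 0.12 for nr6a1.L and 1.09 ± 0.11 for nr6a1.S. Among higher genes known for a part in Notch signalling were those for the ligand jag1.L (0.38 ± 0.068), the receptor notch3.L (LOC108711658, 0.28 ± 0.045), the glycosyltransferase lfng.S (0.37 ± 0.053) and the effectors hes1.L (0.33 ± 0.072), hes3.S (LOC108697686, 0.92 ± 0.14) and hes3.L (LOC108696604, 0.85 ± 0.17). The other copies of 3 of them were not called, with jag1.S at -0.0020, lfng.L at -0.028 and hes1.S at -0.0067. The Wnt receptor genes fzd6.L (0.59 ± 0.096), fzd10.L (0.45 ± 0.083) and fzd4.L (0.43 ± 0.097) were higher, as were kremen2.S (1.05 ± 0.15) and kremen2.L (0.69 ± 0.15), whose mammalian counterpart binds the Wnt inhibitor Dkk1. The Hedgehog ligand gene dhh.L (1.01 ± 0.17) and the Hedgehog transcription factor gene gli1.L (0.58 ± 0.12) were higher. The S copies were not called, at 0.15 ± 0.088 in fzd10.S (adjusted p = 0.773), 0.48 ± 0.12 in dhh.S (adjusted p = 0.0799) and 0.57 ± 0.15 in gli1.S (adjusted p = 0.0743). No list of these pathways was tested, so the genes named describe the calls and not the pathways.

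Higher genes with a known part in sugar metabolism included the following, picked in the same way. slc2a2.L, which encodes a glucose transporter, was at 113, 251 and 263 CPM with RA and 49.9, 122 and 182 CPM with DEAB (0.95 ± 0.084), while slc2a2.S was at 0.0066 ± 0.14 and not called. LOC108711232 (pfkfb3.L), which encodes an enzyme that makes the activator of phosphofructokinase, was at 267.5, 321.5 and 353 CPM with RA and 165.5, 203 and 231 CPM with DEAB, without overlap (0.66 ± 0.070). Its S copy rose by 0.42 ± 0.062, and fbp1.S, a gluconeogenic phosphatase gene, by 0.83 ± 0.10, from a median of 11.2 CPM with DEAB to 22.3 CPM with RA.

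The 12 genes that were lower with RA than with DEAB had small differences and overlapping groups. In 11 of them RA was lower in 6 of 6 clutches, and in bambi.L, a BMP pseudoreceptor gene named here after its values were seen, in 5 of 6 (-0.23 ± 0.053, adjusted p = 0.0407). rnf144b.L, an E3 ubiquitin ligase gene, had the largest difference, at 3.23, 4.76 and 8.19 CPM with RA and 5.53, 8.39 and 12.9 CPM with DEAB (-0.78 ± 0.14, adjusted p = 0.00266). The ranges of rnf144b.L shared values between clutches, and each clutch fell. rdh9, named as a retinol dehydrogenase, was at 0.353, 6.495 and 22.9 CPM with RA and 0.826, 12.98 and 26.3 CPM with DEAB (-0.66 ± 0.15, adjusted p = 0.0265). The range of rdh9 over clutches was far wider than its change, with clutch D lowest and clutch B highest in both groups.

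Other lower genes were fam212a.S (-0.42 ± 0.072), atp1b2, a sodium pump subunit gene (-0.40 ± 0.081), itm2a.L (-0.36 ± 0.075), Xelaev18047284m (-0.32 ± 0.059), LOC108717049, named rap2b.L (-0.28 ± 0.066), nudt22.L (-0.25 ± 0.048), the beta-tubulin gene tubb4b.L (-0.20 ± 0.042) and LOC108709569, named cited4.S (-0.17 ± 0.040). For cited4.S the call was lost whichever clutch was left out. It was lost for rdh9 without clutch A, C, E or F, for itm2a.L without A, E or F, for tubb4b.L without A, B, E or F, for rap2b.L without D, E or F, for atp1b2 without D and for nudt22.L without F. The calls of rnf144b.L, fam212a.S and Xelaev18047284m held whichever clutch was left out. By limma on the deposited log2 values fam212a.S and Xelaev18047284m were not called, and in the fit of 72 libraries Xelaev18047284m was not. The call of rnf144b.L held in both.

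The control libraries showed how the difference divided between the 2 treatments. Both treatments are set against the same controls, so an error of a control library enters both. Whether the control embryos received DMSO is not stated in the labels or methods. An effect of the solvent shared by both treatments therefore cannot be told apart. In the 192 higher genes the median log2 fold change was 0.46 for RA minus control and -0.20 for DEAB minus control, and in 172 of them the control estimate lay between RA and DEAB. The distance from control was larger for RA in 155 of the 192. These genes were chosen for their difference between RA and DEAB, which favours a control estimate between the 2. The shares over all genes tested are not given here, so both counts are a description. RA against control called 107 genes higher (0.548%) and 21 lower (0.107%), and 99 of the 192 higher genes were among its calls. Its 128 calls fell to 70 without clutch D, 62 without E and 39 without F. They were 157 without clutch B, whose control library had the fewest counts (6854309). They were 27 by limma on the deposited log2 values and rose to 319 with no filter on low counts and 194 with DESeq2. DEAB against control called 0 genes by edgeR and 0 by DESeq2, with 1514 genes at an unadjusted p under 0.05 and a lowest adjusted p of 0.34. It called 18 with no filter on low counts and 1 without clutch B or without clutch C. Whether control lay off the midpoint of RA and DEAB was tested directly, and edgeR called 0 genes, with 2063 at an unadjusted p under 0.05 and a lowest adjusted p of 0.187 for arl5c.S, while DESeq2 called 6 and edgeR with no filter on low counts 41. For none of the 192 genes was the larger distance on the RA side resolved in the edgeR fit.

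**Figure D3:**
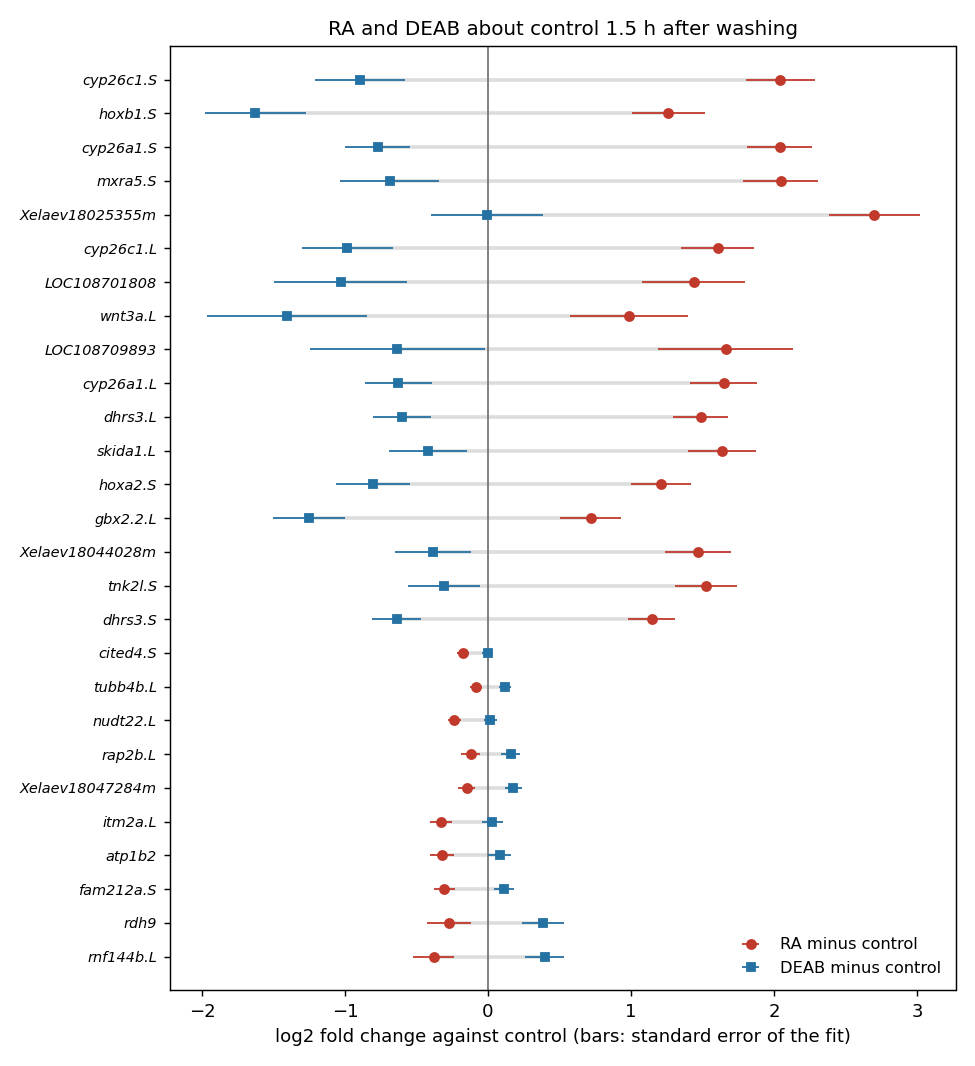
Log2 fold change against control of RA (circles) and of DEAB (squares) 1.5 h after washing for genes with large increases and decreases among called genes that moved the same way in all clutches, with standard errors of the fit as bars. Control is the line at 0 and is shared by both estimates, and hoxb1.S, wnt3a.L and gbx2.2.L have DEAB farther from control than RA.

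For the enzyme genes the estimate on the RA side was the larger. cyp26a1.S stood at 2.04 ± 0.23 for RA minus control (adjusted p = 0.000134) and -0.77 ± 0.23 for DEAB minus control (adjusted p = 0.554), cyp26c1.L at 1.61 ± 0.26 (adjusted p = 0.00263) and -0.98 ± 0.32 (adjusted p = 0.554), and dhrs3.L at 1.49 ± 0.19 (adjusted p = 0.000359) and -0.60 ± 0.20 (adjusted p = 0.554). Among the hox genes, hoxd1.S stood at 0.55 ± 0.13 (adjusted p = 0.0615) and -0.45 ± 0.14 (adjusted p = 0.554). In hoxb1.S the estimate on the DEAB side was the larger, at 1.26 ± 0.26 (adjusted p = 0.0197) and -1.63 ± 0.35 (adjusted p = 0.34), and likewise in gbx2.2.L, at 0.72 ± 0.21 (adjusted p = 0.172) and -1.25 ± 0.25 (adjusted p = 0.34). In Xelaev18025355m nearly the whole difference lay on the RA side, at 2.70 ± 0.32 against -0.0096 ± 0.39, as in prph.L, an intermediate filament gene of peripheral neurons, at 1.41 ± 0.18 against -0.065 ± 0.20. For each of these genes the midpoint test was not passed.

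The clutches differed in the size of the difference between RA and DEAB. The mean log2 difference over the 192 higher genes was 0.60 in clutch A, 0.41 in B, 0.76 in C, 1.11 in D, 1.11 in E and 1.02 in F. These genes were called on the same 6 clutches, so the values describe the spread and do not test it. Clutch B had the smallest difference in 94 of the 192 genes and was above 0 in 179 of them, whereas clutch F was above 0 in 192. Clutches D and E had the largest difference in 69 and 63 genes. The mean over the 16 RA metabolism genes listed in the study's methods was 0.49, 0.22, 0.79, 0.92, 0.85 and 0.90 in the same order. In both groups of genes clutch B had the smallest mean and clutch A the next smallest. The groups share both copies of cyp26a1 and of cyp26c1 and dhrs3.L, so the second is not a separate observation.

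**Figure D4:**
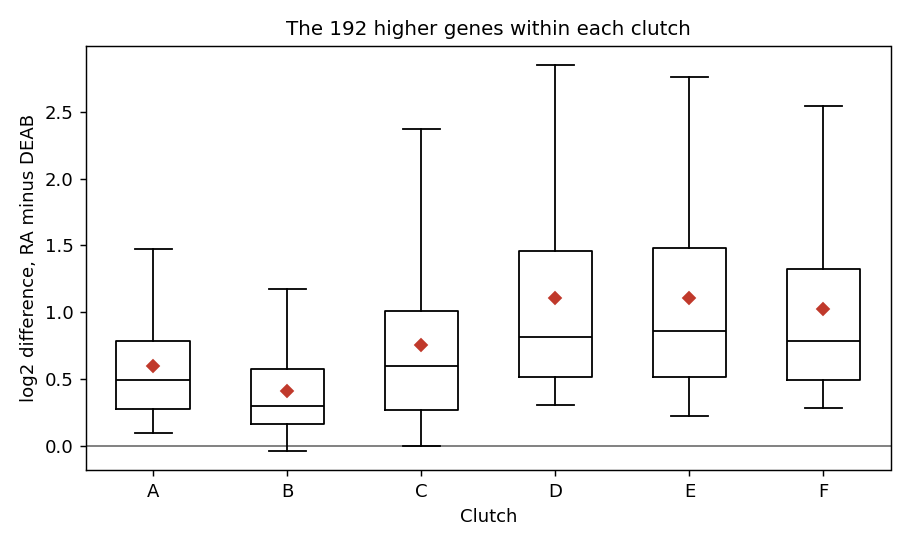
Log2 difference between the RA and the DEAB library of each clutch over the 192 genes called higher, as boxes of the middle quartiles with the median as a line, whiskers at the 5th and 95th percentiles and the mean as a diamond. The means run from 0.41 in clutch B to 1.11 in clutches D and E.

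Across the time course, most of the genes higher at 1.5 h had estimates above 0 at each time point, with a smaller median later. A joint fit used 72 libraries (6 clutches, all 4 time points, without ethanol) and 22092 genes. In it the median log2 fold change of the 192 genes went from 0.44 when the compounds were washed out to 0.67 after 1.5 h, 0.50 after 3 h and 0.36 after 4.5 h, and the number above 0 was 187, 192, 192 and 186. They were chosen for their difference at 1.5 h, which raises their value at that time point in comparison with the others. Immediately after washing 60 of them were called higher, against 0.326% of all genes. After 1.5 h 170 were called (0.964% of all genes), after 3 h 127 (1.01%) and after 4.5 h 68 (0.72%). Of the 12 lower genes, 9, 12, 11 and 12 were below 0 at the successive time points. Those called lower numbered 1 (0.0272% of all genes), 8 (0.0724%), 2 (0.118%) and 1 (0.136%) in the same order.

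The estimates of individual genes followed different courses, which were not tested against each other. hoxa2.S went from 2.65 ± 0.35 at 0 h to 2.02 ± 0.24, 1.38 ± 0.21 and 1.05 ± 0.19 at 1.5, 3 and 4.5 h. hoxd1.L went from 2.17 ± 0.20 to 0.99 ± 0.14, 0.62 ± 0.13 and 0.36 ± 0.13. cyp26a1.S went from 3.39 ± 0.26 to 2.82 ± 0.25, 1.61 ± 0.24 and 0.90 ± 0.24. The estimates of these 3 genes were highest at 0 h, when the compounds were removed. Their change from 0 to 1.5 h did not pass its test in edgeR for any of the 3.

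In cyp26c1.S the estimates were 1.56 ± 0.58, 2.93 ± 0.40, 2.02 ± 0.26 and 1.91 ± 0.23, and in rara.S (LOC108702480) they were 0.51 ± 0.11, 0.93 ± 0.11, 0.92 ± 0.11 and 0.63 ± 0.10. rnf144b.L, the gene with the largest decrease, went from -0.11 ± 0.14 to -0.77 ± 0.15, -0.76 ± 0.16 and -0.46 ± 0.16. The estimates of these genes were larger at 1.5 h than at 0 h, although the change between the time points did not pass its test for any of them.

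**Figure D5:**
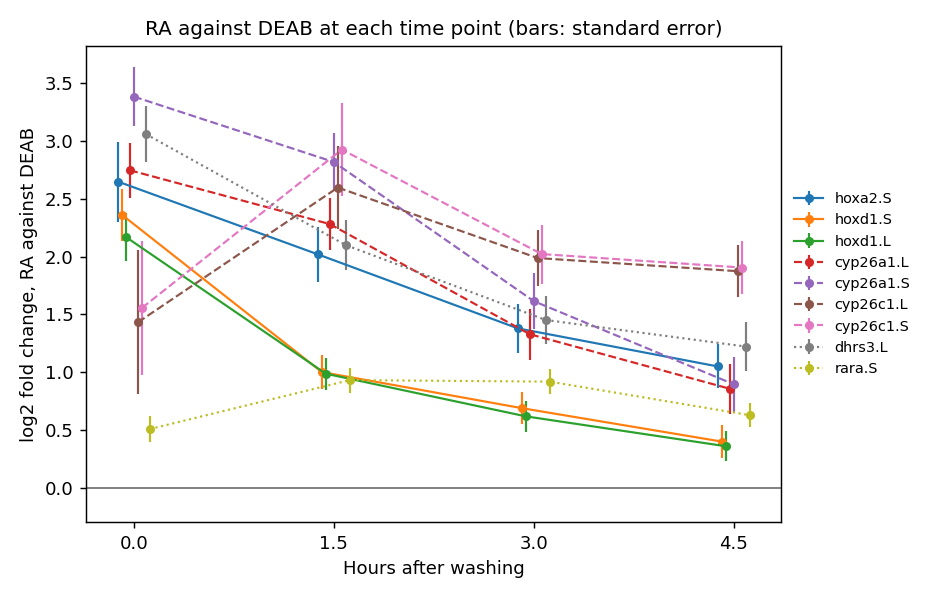
Log2 fold change of RA against DEAB at 0, 1.5, 3 and 4.5 h after washing for 9 hox, RA enzyme and receptor genes, with standard errors as bars and points set slightly apart for legibility. The estimates of hoxa2.S, hoxd1.L and cyp26a1.S are highest at 0 h, whereas those of cyp26c1.S and rara.S (LOC108702480) are higher at 1.5 h than at 0 h. No change from 0 to 1.5 h passed its test in edgeR.

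Whether the difference between RA and DEAB at 1.5 h differed from that at another time point was tested as an interaction. The fit had no term for a clutch's own response, so it treated the differences of a clutch at 2 time points as independent. Against 0 h, edgeR called 0 of 22092 genes (544 at an unadjusted p under 0.05, lowest adjusted p 0.155) and DESeq2 called 1. Against 3 h it called 1 gene, Xelaev18046754m (0.00453% of genes), whose difference rests on single libraries: the RA libraries at 3 h ranged from 0.0891 to 10.6 CPM with a median of 0.252 CPM. The count against 3 h was 0 without clutch B and 2 without clutch A or F. Against 4.5 h it called 3 genes (0.0136%). cyp26a1.S was 1.92 ± 0.34 higher on the log2 scale at 1.5 h than at 4.5 h (adjusted p = 0.0145). Its RA libraries had a median of 847 CPM at 1.5 h and 207 CPM at 4.5 h, while its DEAB libraries went from 94.6 to 125 CPM. LOC108708243, named olig4.L, a bHLH gene, was 2.15 ± 0.43 lower (adjusted p = 0.0456), and src.L, a tyrosine kinase gene, was 0.39 ± 0.077 lower (adjusted p = 0.0456). From 1.5 to 4.5 h the estimate of RA against DEAB went from -0.49 ± 0.35 to 1.66 ± 0.24 in olig4.L and from 0.0056 ± 0.054 to 0.40 ± 0.055 in src.L. The number called against 4.5 h was 0 without clutch D, E or F and 7 without clutch A, and that against 0 h was 4 without clutch A and 2 without clutch C.

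Calls often fell on 1 homeolog of a pair. Among 3190 pairs with both copies tested, 92 had at least 1 copy called, and 18 had both called, always in the same direction. In the other 74 pairs the uncalled copy pointed the same way in 53, by a median of 0.073 on the log2 scale. Besides meis3, slc2a2 showed this, with 0.95 in slc2a2.L and 0.0066 in slc2a2.S, as did kit, a receptor tyrosine kinase gene, with 0.96 in kit.L and -0.18 in kit.S. The difference between copies was not tested. In RefSeq gene order (X. laevis assembly v10.1), 25 of the 167 higher genes that could be placed (15%) had another higher gene among the 2 nearest on each side, compared with 4.58% of other genes. These included cyp26a1 beside cyp26c1 on both the L and the S chromosome, hoxb1.S with hoxb4.S and LOC108702517, skida1.L beside mllt10.L and dhh.L beside rhebl1.L. The shares are a description, since clustered gene families were not set apart.

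Developmental age was compared by a score built from control libraries, the mean log2 CPM of the 200 genes that rose most from 0 to 3 h less that of the 200 that fell most. The difference RA minus DEAB was 0.058 ± 0.52 (SD, n = 6 clutches), above 0 in 4 of 6 clutches (exact sign-flip test, 2-sided, p = 0.875, smallest possible p 0.0313). The control score rose by 3.53 from 1.5 to 3 h. Clutch C, whose difference was -0.93, was then left out and the genes of the score were chosen again. The mean was 0.26 (exact sign-flip test, p = 0.0625, the smallest possible with 5 clutches), so the result with all clutches depended on clutch C. Of the score's genes, 24 were themselves called between RA and DEAB. With all called genes left out, an alternative added after the data were seen, the mean difference was -0.11 (exact p = 0.781). Of the 192 higher genes, 85.4% rose in control embryos from 0 to 3 h, compared with 45% of all genes tested, and the part of this trend in the difference between RA and DEAB was not tested.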

How the data were processed

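Whole embryos of 6 clutches were sequenced by the authors on an Illumina HiSeq instrument, and reads were aligned with STAR to X. laevis genome 9.1 and counted per gene with verse. The deposited counts (31430 genes, 0 rows without a gene name) are raw. The deposited log2 values (16322 genes, 72 libraries) were made by the authors with the regularized log of DESeq2, ComBat batch correction, a low-expression filter and quantile normalization, and served only as an alternative. Whether counting used strand is not given in the sources used here, so overlapping genes cannot be told apart.

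Counts were tested with edgeR 4.0.16 in R 4.3.3 (quasi-likelihood test, TMM, filterByExpr, Benjamini-Hochberg adjustment, threshold 0.05), in 1 fit of 18 libraries of 1.5 h with clutch as a block, and in a fit of 72 libraries with a clutch and time block for interactions. Standard errors were derived from the F statistic. CPM used TMM scaling, and log2 CPM a prior count of 2. The pairing rests on the clutch letters of the labels, and the paper states that each clutch came from 1 female. Deviations from group means correlated at 0.738 to 0.87 within clutches and -0.407 to 0.21 between them. The 30 pairs of libraries of 1 group differed beyond sampling noise (chi-square over degrees of freedom 14.8 to 35.5). Clutches came from separate females. The block takes out differences in level between them, so p-values rest on how far the treatment differences varied from clutch to clutch.

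Named genes were the 20 called genes with the largest increase and up to 12 with the largest decrease that moved the same way in all clutches, the 22 hox and RA metabolism genes of the study's methods, called list members with both homeologs, and up to 5 called genes per interaction and midpoint test. Members and lists were chosen with earlier results of these data known. RefSeq (v10.1) gave current names for 1623 of the tested genes, of which 22 were called. Results of some named genes are not reported here, and those of other tested genes are summarised only.

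Alternatives were DESeq2 1.42.0, RLE scaling, dropping the filter on low counts, a fit with no replicate block, the 12 RA and DEAB libraries alone, the fit of 72 libraries, limma 3.58.1 on the log2 values, and leaving out each clutch. The procedures were tested on simulated counts. The 24 ethanol libraries were not used here.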

Additional observations from a re-analysis of the deposited data

Results flagged for a closer look

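In 2 of 56 named genes tested at 1.5 h, 1 clutch stood apart from the other 5 in its log2 difference between RA and DEAB, and chance alone flags about 1 in 20 groups of this kind. In tubb4b.L clutch C was at -0.0446 while the others lay between -0.2511 and -0.1924. In crabp2.S, an RA binding protein gene with low counts, clutch B was at -1.09 and the others between -0.11 and 0.24.

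The difference between RA and DEAB at 1.5 h was set apart from that of a later time point by an interaction test for 4 genes, as a log2 difference of 1.5 h minus the later time. Against 3 h this was Xelaev18046754m at -6.55. Against 4.5 h these were cyp26a1.S at 1.92, LOC108708243 (olig4.L) at -2.15 and src.L at -0.39. For olig4.L the RA libraries had a median of 7.98 CPM at 4.5 h and 0.659 CPM at 1.5 h, and the DEAB libraries 2.08 and 0.981 CPM. For src.L the RA libraries had a median of 72.3 CPM at 4.5 h and the DEAB libraries 56.0 CPM.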

How the results depend on the processing

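The block by clutch carried most of the calls: with no replicate block the higher genes fell to 8 and the lower to 0, 39 of 62 named genes lost their call, and 0 genes were called for 3 h or 4.5 h. DESeq2 gave 213 higher and 35 lower genes, 6 genes off the midpoint, and 1, 0 and 10 genes differing from 0, 3 and 4.5 h. With no filter on low counts there were 263 higher and 82 lower genes, 41 off the midpoint, and 1 and 9 genes differing from 0 and 4.5 h. Limma on the deposited log2 values gave 125 higher genes, of which 122 were among the 192. It gave 10 lower genes, of which 5 were among the 12. Of the 192, DESeq2 called 187. Leaving out each clutch in turn gave 126 (without F) to 206 (without B) higher and 6 (without E) to 23 (without B) lower genes, 0 to 4 genes differing from 0 h, 0 to 2 from 3 h and 0 to 7 from 4.5 h, and a developmental score from -0.0348 to 0.258. With called genes left out of the score it was -0.1097. The causes were not tested. RLE scaling, the 12 libraries alone and the fit of 72 libraries kept the counts at 1.5 h within 1.5 times. The genes called were not all the same. The 12 libraries alone shared 155 higher and 9 lower genes with the main fit, and the fit of 72 libraries 170 and 8. Of the named genes, 6 of 59 lost their call in the first and 6 of 62 in the second, lhx1.L and cdx4.S in both. The 12 libraries alone also lost the calls of dusp6.S and rap2b.L. With limma 12 of 62 lost their call, lhx1.L and cdx4.S again among them. Its other losses included hoxb4.S, dusp6.L, dusp6.S, rdh9, rap2b.L, tubb4b.L and cited4.S. No named gene reversed its direction with a call. Depth limits genes under about 1 CPM, where a library of 8540455 counts holds few reads.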
